A study of Mus musculus with 4 samples.

Results

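To find which cells of the mouse salivary glands make the vascular growth factor gene *Vegfa* and which hold the genes of its receptors and of the angiopoietin receptors, single-cell RNA sequencing (scRNA-seq) data of the SMG (submandibular gland) together with the SLG (sublingual gland) were examined for 7 genes: *Vegfa*, *Kdr*, *Flt1*, *Flt4*, *Nrp1*, *Tek* and *Tie1*. They were taken by gene symbol from the 32285 genes listed in the deposited matrix, each symbol matched 1 row, and all 7 had at least 1 unique molecular identifier (UMI, the tag that counts a captured RNA molecule once). The glands came from wild-type female C57BL/6N mice aged 6 to 8 weeks in an untreated, physiological state, and both glands went into the same cell suspension. The labels list 4 samples, each from 2 mice, but the matrix holds all 15707 cells under 1 barcode suffix, with 0 repeated barcodes, so the sample, mouse and gland of each cell are unknown. All values therefore describe 1 pooled sample, no test between samples was possible, and the intervals given cover counting error only. The tissue was digested with collagenases, hyaluronidase, dispase and pancreatin, so the cells recovered are those that survived this step.

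VEGF-A is a secreted factor that draws and maintains blood vessels, and epithelia of many organs make it for the vessels beside them. *Kdr* encodes VEGF receptor VEGFR2, the main signalling receptor for VEGF-A on endothelial cells. *Flt1* encodes VEGFR1, which binds VEGF-A tightly and, as a membrane or soluble form, limits what reaches VEGFR2. *Flt4* encodes VEGFR3, the receptor for VEGF-C and VEGF-D and a hallmark of lymphatic endothelium. *Nrp1* encodes neuropilin 1, a co-receptor that binds both VEGF-A and class 3 semaphorins and is known from endothelium, fibroblasts, macrophages and nerve. *Tek* encodes TIE2, the receptor of the angiopoietins, and *Tie1* its orphan partner. Libraries that read the 3′ end, as here, do not separate the splice forms of *Vegfa* or the soluble form of *Flt1*.

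In the GENCODE M21 annotation on GRCm38 (the mm10 build named in the submitters' processing notes), all 7 are protein-coding. *Vegfa* lies at chr17:46016993-46032369 on the minus strand, *Kdr* at chr5:75932827-75978458 and *Flt1* at chr5:147561604-147726011, both also on the minus strand. *Flt4* lies at chr11:49609263-49652739, *Nrp1* at chr8:128358604-128503363 and *Tek* at chr4:94739289-94874976, all on the plus strand, and *Tie1* at chr4:118471191-118490061 on the minus strand. All 7 genes matched an entry of the RefSeq promoter windows (GRCm38.p6). The bases just before the RefSeq start are shown for *Vegfa*, the ligand gene with its highest level outside the vascular-like cells, and for 3 receptor genes whose RNA lay mostly in vascular-like cells. They are written 5′ to 3′ on the gene's strand, with matches to AGGAAG or CGGAAG on either strand, short forms of the site bound by ETS factors, in capitals. The stretches are chr17:46032378-46032627 (minus), chr5:75978459-75978705 (minus), chr5:147726012-147726261 (minus) and chr4:94739039-94739288 (plus), and 3 bases of the *Kdr* window that lie inside an annotated transcript were left out.
*Vegfa*: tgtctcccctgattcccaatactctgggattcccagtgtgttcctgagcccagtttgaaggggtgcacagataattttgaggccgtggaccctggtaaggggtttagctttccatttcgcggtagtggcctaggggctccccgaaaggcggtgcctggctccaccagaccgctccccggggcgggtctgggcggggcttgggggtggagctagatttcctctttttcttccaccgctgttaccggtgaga
*Kdr*: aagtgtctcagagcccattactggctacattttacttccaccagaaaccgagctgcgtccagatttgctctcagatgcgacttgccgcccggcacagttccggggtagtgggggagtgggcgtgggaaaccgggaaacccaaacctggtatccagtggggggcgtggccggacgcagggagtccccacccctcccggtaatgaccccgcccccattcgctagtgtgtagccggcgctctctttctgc
*Flt1*: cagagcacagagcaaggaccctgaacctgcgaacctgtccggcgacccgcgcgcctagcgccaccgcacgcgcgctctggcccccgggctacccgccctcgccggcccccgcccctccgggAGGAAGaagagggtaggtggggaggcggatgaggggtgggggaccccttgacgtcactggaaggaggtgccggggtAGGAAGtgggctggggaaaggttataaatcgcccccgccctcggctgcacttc
*Tek*: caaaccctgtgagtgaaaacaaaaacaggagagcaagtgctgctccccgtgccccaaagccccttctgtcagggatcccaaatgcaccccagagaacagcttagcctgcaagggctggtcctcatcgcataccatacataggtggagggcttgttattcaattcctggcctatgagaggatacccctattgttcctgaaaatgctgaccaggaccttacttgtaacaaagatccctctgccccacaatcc

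The *Flt1* stretch held 2 such matches, which begin 129 and 53 bases before the start, and the stretches of *Vegfa*, *Kdr* and *Tek* held 0. At least 1 match was present in 39.2% and at least 2 in 11.3% of all 32817 windows of 250 bases. The GC-box letters GGGCGG occurred 2 times before *Vegfa*, 2 times before *Kdr*, 3 times before *Flt1* and 0 times before *Tek*, and in 32.7% of all windows. The letters GCGTG, a form of the core of the element that hypoxia-inducible factors bind, occurred 2 times before *Kdr*, 1 time before *Flt1* and 0 times before *Vegfa* and *Tek*, and in 28.1% of all windows. Other forms of this core, and bases further from the start, were not searched. The GC content was 59.2% for *Vegfa*, 61.5% for *Kdr*, 70.4% for *Flt1* and 51.2% for *Tek*. None of the letters searched stood before all 3 of these receptor genes.

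The cells were grouped into 23 clusters without using the 7 genes or the pathway list, and 17 clusters were named from marker lists, which gave 9 classes. There were 2698 serous acinar-like, 345 mucinous acinar-like, 2716 ductal epithelial-like, 235 basal or myoepithelial-like, 1238 lymphoid-like, 1099 myeloid-like, 523 vascular-like, 555 mesenchymal-like and 85 pericyte-like cells. The other 6213 cells (39.6%) lay in 6 clusters with no name, mostly of few genes per cell. The vascular-like cluster passed 11 of its 18 markers, among them *Cdh5*, *Pecam1*, *Emcn* and *Egfl7*, which mark endothelium. Depth was uneven. The median was 25364.5 UMIs per serous acinar-like cell, 2736 per ductal, 2415 per vascular-like, 2242 per myeloid-like, 2087 per mesenchymal-like and 1868.5 per lymphoid-like cell, and the top 10 transcripts alone gave 75.5% of the UMIs. Transcripts of acinar cells made up 49.3% of the UMIs of the vascular-like class and 50.1% of the mesenchymal-like class, against 12.2% in the myeloid-like and 13.7% in the basal or myoepithelial-like class. A level is given as UMIs of a gene per 10000 UMIs of a class, with its exact 95% Poisson interval in parentheses.

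*Vegfa* RNA was present in all 9 classes and was highest in duct and lymphoid cells, with the lowest levels in acinar and myeloid cells. The matrix held 2015 *Vegfa* UMIs in 1651 cells, and no cell had more than 7. Ductal epithelial-like cells had a level of 0.877 (0.818 to 0.939), and lymphoid-like cells one of 0.809 (0.704 to 0.925). Their log2 ratio was 0.12 with an interval of −0.10 to 0.34, so the order of these 2 classes was not separated. Basal or myoepithelial-like cells followed at 0.603 (0.484 to 0.742), below lymphoid-like cells by a log2 ratio of 0.42 (0.06 to 0.80). Mesenchymal-like cells at 0.303 (0.224 to 0.401), vascular-like cells at 0.263 (0.194 to 0.347) and pericyte-like cells at 0.220 (0.0601 to 0.565) had overlapping intervals. At the low end, mucinous acinar-like cells had 0.134 (0.1001 to 0.176), the myeloid-like class had 0.101 (0.0679 to 0.146) and the serous acinar-like class had 0.0427 (0.0382 to 0.0477). Across all genes with at least 100 UMIs, the ductal class was the highest for 19.1% and the lymphoid class for 14.3%, so a maximum in either class was common.

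**Figure D1:**
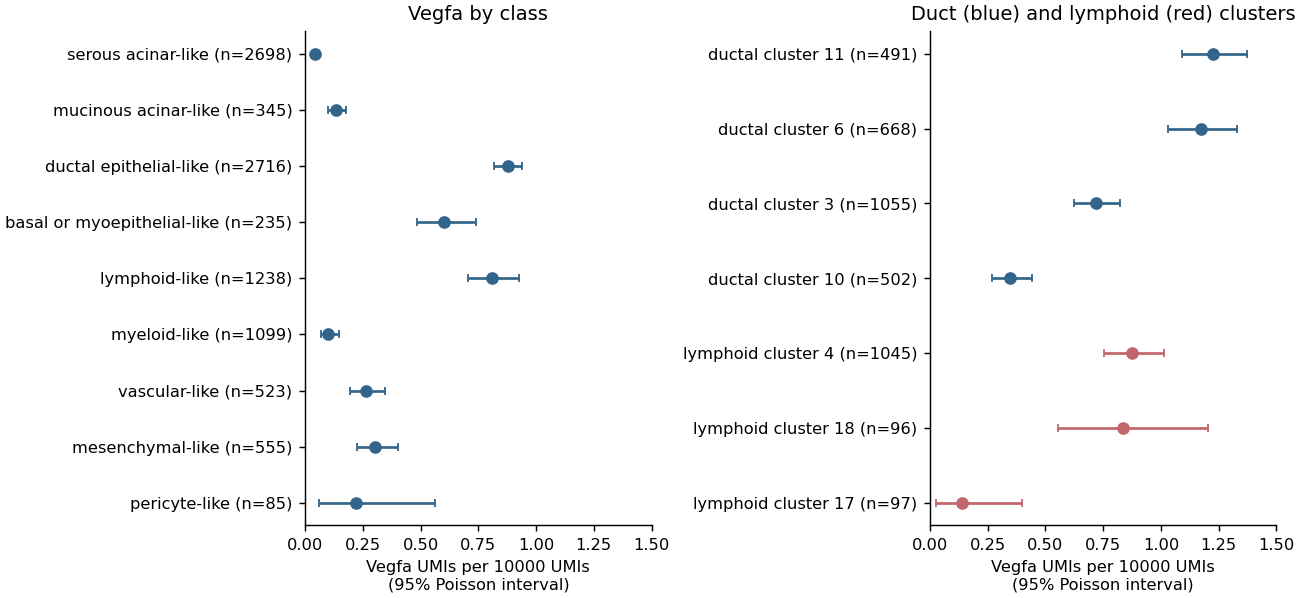
*Vegfa* UMIs per 10000 UMIs with 95% Poisson intervals, by class on the left and by duct cluster (blue) and lymphoid cluster (red) on the right, with the number of cells of each. Duct clusters 11 and 6 lie highest, at 1.23 and 1.17, and lymphoid clusters 4 and 18 lie above duct cluster 10, while lymphoid cluster 17 lies at 0.137.

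By count, ductal epithelial-like cells held 41.1% of all *Vegfa* UMIs, serous acinar-like cells 15.8% and lymphoid-like cells 10.6%, and the unnamed clusters held 19.1%. The order depended on the denominator. Counted per 100 cells, there were 37.9 *Vegfa* UMIs in basal or myoepithelial-like cells, 30.5 in ductal, 17.2 in lymphoid-like, 15.1 in mucinous acinar-like and 11.8 in serous acinar-like cells, whose depths differ as given above. With the 10 most abundant transcripts left out of the total, the serous acinar level was 0.423 in place of 0.0427, and the ductal level was 1.03. On this scale mucinous acinar-like cells had 0.464. Both acinar classes then lay above pericyte-like (0.258, from 4 UMIs) and myeloid-like cells (0.116), and below vascular-like cells (0.522). When each cell was thinned to 500 UMIs, a *Vegfa* UMI was found in 4.12% of ductal, 3.63% of lymphoid-like and 3.40% of basal or myoepithelial-like cells, and in 2.10% of vascular-like, 0.364% of myeloid-like and 0.148% of serous acinar-like cells. At 1000 UMIs the share was 8.76% (7.73 to 9.89) in ductal and 7.35% (5.96 to 8.95) in lymphoid-like cells. In basal or myoepithelial-like cells the share was 3.83% (1.77 to 7.15), an interval that overlapped the lymphoid but not the ductal one. Each thinning was drawn only once at random, and the intervals do not cover the spread between draws. Without thinning, 22.9% of ductal, 14.1% of lymphoid-like and 10.6% of serous acinar-like cells had a *Vegfa* UMI, against 2.37% of myeloid-like cells. Of the 85 pericyte-like cells, 4 had a *Vegfa* UMI, and 0 after thinning to 500 UMIs.

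Among the duct cells, *Vegfa* varied between clusters. Cluster 11 (491 cells) and cluster 6 (668 cells), both led by glandular kallikrein genes of the *Klk1b* group, near-identical copies among which reads can be split, that mark granular convoluted duct, had levels of 1.23 (1.09 to 1.37) and 1.17 (1.03 to 1.33). Cluster 11 was deeper, with a median of 4714 UMIs per cell against 2758.5 in cluster 6 and 2464 in cluster 3, and it also passed the markers *Ascl3* and *Foxi1*, which cluster 6 did not. The log2 ratio of the 2 was 0.06 (−0.19 to 0.31). Cluster 3 (1055 cells), led by *Ascl3* and *Foxi1*, transcription factor genes of ionocyte-type duct cells, had a level of 0.718 (0.624 to 0.822), below cluster 6 by a log2 ratio of 0.71 (0.44 to 0.98). Cluster 10 (502 cells), led by *Esp4* and the transporter genes *Slc9a3* and *Slc13a2*, had 0.346 (0.268 to 0.440), and cluster 6 lay 3.39-fold above it, with a log2 ratio of 1.76 (1.37 to 2.17). The duct was thus not uniform, and its kallikrein-rich clusters held 306 and 245 of the 828 ductal *Vegfa* UMIs. Basal or myoepithelial-like cells, with *Krt14*, *Krt5* and *Trp63*, lay near cluster 3, with a log2 ratio of cluster 3 over them of 0.25 (−0.11 to 0.63).

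The lymphoid level came mostly from cluster 4, whose 1045 cells were led by the granzyme genes *Gzmc*, *Gzmb* and *Gzma* and by *Xcl1*, and carried *Ncr1* and *Klrb1c*, receptor genes of natural killer and related innate lymphoid cells. It held 182 of the 213 lymphoid *Vegfa* UMIs at a level of 0.875 (0.753 to 1.01). Cluster 18 (96 cells), with the same receptor genes plus division genes such as *Top2a* and *Stmn1*, had 0.834 (0.554 to 1.21), and the log2 ratio of cluster 4 over it was 0.07 (−0.51 to 0.70). Cluster 17 (97 cells), with the T cell genes *Cd3d* and *Cd3e* beside immunoglobulin RNA (*Igkc*, *Igha*) among its leading genes, had 3 *Vegfa* UMIs at 0.137 (0.0283 to 0.401), and cluster 4 lay above it by a log2 ratio of 2.67 (1.10 to 4.96). The macrophage cluster 5, with the complement genes *C1qa*, *C1qb* and *C1qc*, had 0.0940 (0.0582 to 0.144), which was 9.31-fold below cluster 4. *Vegfa* RNA was thus unevenly spread over the immune clusters. It was high in clusters 4 and 18, with *Ncr1*, and low in macrophage cluster 5 and in the mixed cluster 17, there from 3 UMIs.

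Because duct cells also made *Vegfa*, duct marker RNA was counted in the same cells. Of the duct markers, only *Krt7*, *Krt8*, *Krt18*, *Epcam*, *Cldn4* and *Klk1* were counted here. Lymphoid cluster 4 held 12.0 UMIs of these genes per 10000 UMIs, against 721 in the ductal class. The 298 cells of cluster 4 that had 0 UMIs of these markers had a *Vegfa* level of 1.13 (0.868 to 1.45), and the 747 cells that had at least 1 had 0.783 (0.650 to 0.937). The share of duct RNA in the lymphoid *Vegfa* level was not tested further. From an estimate of free RNA of 520 UMIs per droplet, 10.4 of the 213 lymphoid *Vegfa* UMIs would be expected. An unnamed cluster of 53 cells (cluster 21) carried 11 duct and 7 lymphoid markers together and had a *Vegfa* level of 0.805 (0.492 to 1.24), and it was left out of both classes. In mesenchymal-like cells without UMIs of the duct genes counted above (80 cells) the level was 0.476 (0.206 to 0.938), and in vascular-like cells without them (70 cells) 0.252 (0.0686 to 0.644).

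The other ligand genes had patterns of their own. *Vegfb*, whose product binds VEGFR1, was highest in ductal cells at 0.934 (0.874 to 0.998), with 1.33 in the *Ascl3* cluster 3, against 0.965 in cluster 11. Pericyte-like cells followed at 0.717 (0.382 to 1.23), an interval that held the ductal value. *Vegfc*, the main ligand of VEGFR3, had 147 UMIs and was highest in vascular-like cells at 0.215 (0.153 to 0.292), followed by lymphoid-like cells at 0.121 (0.0831 to 0.172), where cluster 4 held 30 of the 32 UMIs. *Pgf*, placental growth factor and a ligand of VEGFR1, was highest in pericyte-like cells at 1.27 (0.804 to 1.90) from 23 UMIs, then in basal or myoepithelial-like cells at 0.318 (0.234 to 0.423), a log2 ratio of 1.99 (1.21 to 2.74). *Vegfd* had 18 UMIs in the whole matrix and is given no class.

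Of the angiopoietins, *Angpt1*, the activating ligand of TIE2, had 250 UMIs and was highest in basal or myoepithelial-like cells at 0.203 (0.137 to 0.290), beside 0.249 in the kallikrein-rich duct cluster 6. Its level in pericyte-like cells, 0.165 (0.0341 to 0.483), rested on 3 UMIs and was not separated from the basal level, with a log2 ratio of 0.30 (−1.39 to 2.65). In vascular-like cells the *Angpt1* level was 0.0322, from 6 UMIs. *Angpt2*, the context-dependent ligand that endothelium is known to store, had 14 UMIs in all, 6 of them in vascular-like cells, and *Angpt4* had 5.

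All 6 receptor genes were highest in the vascular-like class, and each was at least 2-fold above every other class (5 of 6, without *Nrp1*, when the 7 genes and the pathway list were kept among the clustering genes). The same held for 1.42% of the 11235 genes with at least 100 UMIs, of which 4.8% were highest in the vascular-like class at all. The median log2 ratio of the vascular-like level over the highest other class was 5.58 for the 6 receptor genes and −1.39 for all genes tested. *Flt4* had 62 UMIs and is below the count of 100 that the other 5 passed. Since endothelial cells were grouped by their other genes, and these go together with the receptors, the percentage is a description of how common such a pattern was.

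**Figure D2:**
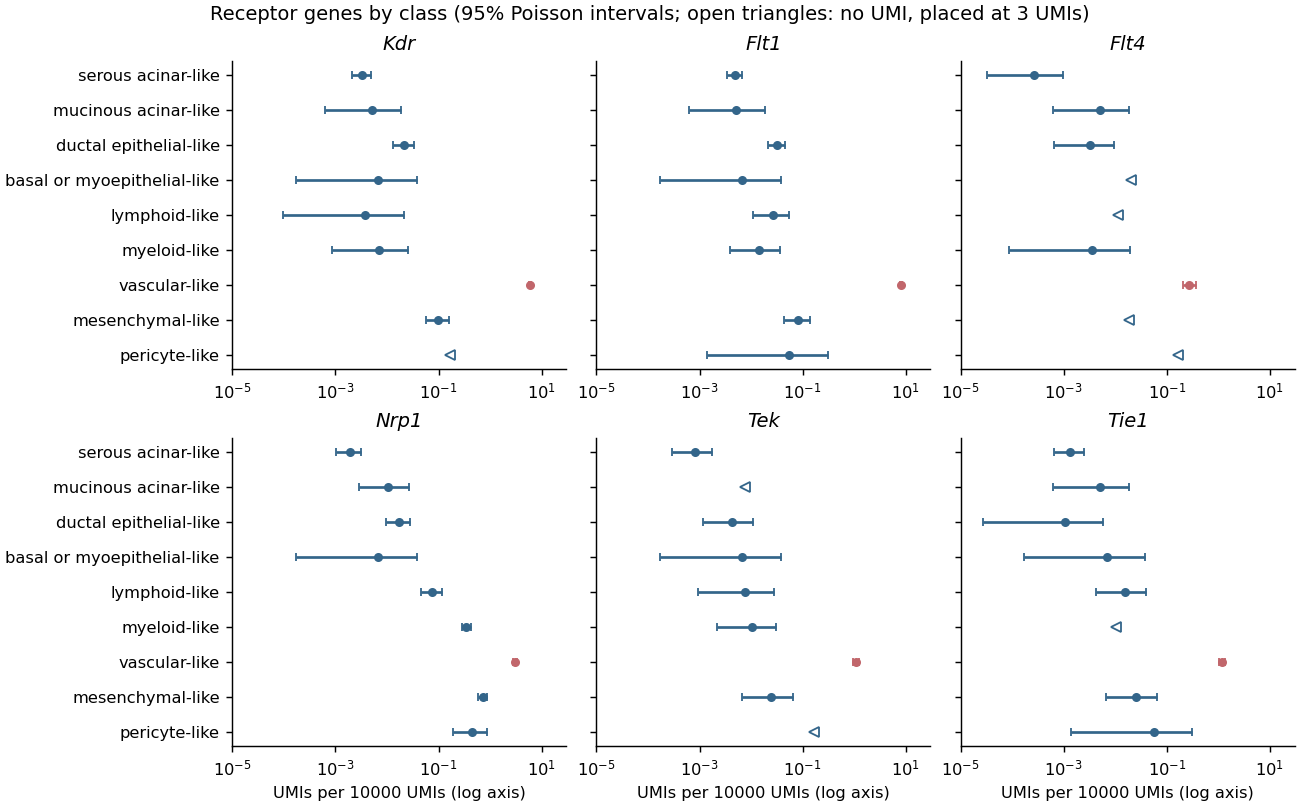
Level of each receptor gene in the 9 classes, as UMIs per 10000 UMIs on a log axis with 95% Poisson intervals, the vascular-like class in red, and open triangles at 3 UMIs where a class had none. The vascular-like point lies furthest right in all 6 panels, and *Nrp1* is the gene whose other classes (mesenchymal, pericyte and myeloid) come closest, at 0.718, 0.441 and 0.346 against 3.05.

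*Kdr* had 1273 UMIs in 462 cells, and 86.4% of them lay in vascular-like cells, at a level of 5.90 (5.56 to 6.26). The mesenchymal-like class came next with 16 UMIs at 0.0990 (0.0566 to 0.161), 59.6-fold lower, with a log2 ratio of 5.90 (5.19 to 6.71). Ductal cells had 20 UMIs at 0.0212 (0.0129 to 0.0327), and 14.4 would be expected from free RNA. A *Kdr* UMI was found in 58.9% of vascular-like cells and in 1 of 1238 lymphoid-like cells (0.0808%). Of the 85 pericyte-like cells 0 had one, which by the floor of 3 counts allows a share of cells with a UMI of up to 3.53%.

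*Flt1* had 1768 UMIs in 576 cells, with 85.3% of them in the vascular-like class at a level of 8.09 (7.69 to 8.51). The mesenchymal-like class had 13 UMIs at 0.0805 (0.0428 to 0.138), 101-fold lower, with a log2 ratio of 6.65 (5.87 to 7.56). A UMI was present in 66.5% of vascular-like, 2.16% of mesenchymal-like, 0.700% of ductal and 0.404% of lymphoid-like cells. In macrophages *Flt1* is known as a receptor gene of monocyte migration. The myeloid-like class had 4 UMIs in 1099 cells, a level of 0.0140 (0.00381 to 0.0358), and macrophage cluster 5 held 3 of them. The 4 UMIs were within the 8.07 expected in this class from free RNA.

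The angiopoietin receptors followed the same pattern at lower counts. *Tek* had 250 UMIs, 80.0% of them in vascular-like cells at 1.07 (0.929 to 1.23). The mesenchymal-like class had 4 UMIs at 0.0248 (0.00675 to 0.0634), a log2 ratio of 5.44 (4.06 to 7.33). The myeloid-like class, in which TIE2-expressing macrophages are known, had 3 *Tek* UMIs in 1099 cells. *Tie1* had 263 UMIs, 83.7% of them in vascular-like cells at 1.18 (1.03 to 1.35). The next class was pericyte-like with 1 UMI, a log2 ratio of 4.42 (1.93 to 9.73), and the mesenchymal-like class had 4 UMIs at 0.0248 (0.00675 to 0.0634). A UMI was present in 25.8% of vascular-like cells for *Tek* and in 30.2% for *Tie1*, against 0.162% and 0.323% of lymphoid-like cells.

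*Flt4* was rare. It had 62 UMIs in 53 cells, with 51 of them (82.3%) in vascular-like cells at a level of 0.274 (0.204 to 0.360). The next class was mucinous acinar-like with 2 UMIs, a log2 ratio of 5.73 (3.80 to 8.81). The lymphoid-like, mesenchymal-like, basal or myoepithelial-like and pericyte-like classes had 0 UMIs. For the 1238 lymphoid-like cells this allows, by the same floor, a share of cells with a UMI of up to 0.242%, and for the 85 pericyte-like cells of up to 3.53%. A *Flt4* UMI was found in 8.22% of vascular-like cells.

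*Nrp1* was the receptor gene least restricted to the vascular-like class, which held 61.3% of its 928 UMIs at a level of 3.05 (2.81 to 3.31). Mesenchymal-like cells held 12.5% at 0.718 (0.593 to 0.861), 4.25-fold lower, with a log2 ratio of 2.09 (1.80 to 2.39). Pericyte-like cells had 8 UMIs at 0.441 (0.190 to 0.869) and myeloid-like cells 99 UMIs at 0.346 (0.281 to 0.422). Mesenchymal-like and pericyte-like cells were not separated, with a log2 ratio of 0.70 (−0.32 to 1.95), and neither were pericyte-like and myeloid-like cells, at 0.35 (−0.90 to 1.38). Myeloid-like cells lay above lymphoid-like cells, which had 0.0759 (0.0464 to 0.117), by a log2 ratio of 2.19 (1.49 to 2.96). Within the myeloid class the macrophage cluster 5 had 0.362 (0.288 to 0.450) and the antigen-presenting cluster 16, led by *Retnla*, *Napsa* and *Ccr7*, had 0.315 (0.176 to 0.519). Duct, basal and acinar cells had levels from 0.00188 to 0.0169.

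Vascular marker RNA was counted in the same cells. Of the 99 myeloid *Nrp1* UMIs, 84 lay in the 1006 cells with 0 UMIs of the 18 vascular markers, at 0.331 (0.264 to 0.410), and 4.24 would be expected from free RNA. In mesenchymal-like cells, *Cd34* and *Ramp2* made up most of the vascular marker UMIs, with *Plvap* and *Eng*, and *Cd34* is also known from fibroblasts. The 249 mesenchymal-like cells with 0 UMIs of all 18 markers had an *Nrp1* level of 0.347 (0.223 to 0.517), and the other 306 had 0.995 (0.802 to 1.22). In the 451 cells with 0 UMIs of *Cdh5*, *Pecam1*, *Emcn*, *Egfl7* and *Plvap*, 5 markers picked after these values were seen, the level was 0.640 (0.508 to 0.795), while those cells had 7 *Kdr* and 6 *Flt1* UMIs. The part of endothelial RNA in the mesenchymal *Nrp1* level was not tested beyond these values. The fold between the vascular-like and mesenchymal-like classes depended on how these were drawn. In 5 of 6 other clusterings the mesenchymal-like class was smaller, with 259 to 266 cells and *Nrp1* levels from 1.40 to 1.43, and over the 6 the log2 ratio ranged from 0.62 to 2.44.

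The vascular-like class was not uniform in depth of endothelial RNA. Clustered again without the 7 genes and the pathway list, its 523 cells gave 4 sub-clusters. Sub-cluster 1 (165 cells, 1114 genes at the median) carried the capillary genes *Plvap*, *Rgcc* and *Gpihbp1*, with 12.3% acinar UMIs. In it, 13 of 18 vascular markers were each found in at least 25% of cells, a count of detection only. Sub-cluster 3 (45 cells) had 13 vascular and 7 of 11 pericyte markers by the same count, with *Rgs5*, *Abcc9* and *Kcnj8* among its leading genes. Sub-clusters 0 (179 cells) and 2 (134 cells) had 59.2% and 73.7% acinar UMIs, and sub-cluster 2 was led by hemoglobin and serous acinar genes.

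All 6 receptor genes were highest in sub-cluster 1, which also had the most vascular marker RNA, 119.9 UMIs of the 18 markers per 10000 against 83.8 in sub-cluster 3, 16.5 in sub-cluster 0 and 17.2 in sub-cluster 2. In sub-cluster 1 *Kdr* was at 16.6 (15.3 to 17.9), *Flt1* at 21.6 (20.2 to 23.1), *Nrp1* at 7.90 (7.06 to 8.82), *Tek* at 2.81 (2.31 to 3.38), *Tie1* at 3.45 (2.90 to 4.08) and *Flt4* at 0.845 (0.585 to 1.18). A UMI was found in 92.1% of its cells for *Kdr*, 93.9% for *Flt1*, 73.9% for *Nrp1*, 54.5% for *Tie1*, 46.1% for *Tek* and 18.8% for *Flt4*. Sub-cluster 3 lay lower for *Kdr* at 10.9 (9.35 to 12.6), *Flt1* at 16.4 (14.5 to 18.6) and *Tie1* at 2.06 (1.42 to 2.89). It also lay lower for *Flt4*, from 5 UMIs, with a log2 ratio of sub-cluster 1 over 3 of 1.44 (0.08 to 3.15). It was not separated from sub-cluster 1 for *Nrp1*, with a log2 ratio of sub-cluster 1 over 3 of 0.27 (−0.05 to 0.61), or for *Tek*, at 0.21 (−0.33 to 0.77). In sub-clusters 0 and 2 *Kdr* was at 2.01 (1.69 to 2.36) and 1.95 (1.61 to 2.35). Between these 2 sub-clusters, of nearly the same marker level, *Tek* was at 0.251 (0.149 to 0.397) and 0.514 (0.347 to 0.733), *Nrp1* at 1.31 (1.06 to 1.60) and 0.891 (0.665 to 1.17), and *Flt4* at 0.153 (0.0765 to 0.274) and 0.0171 (0.000434 to 0.0954).

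The levels were also set against vascular marker RNA in place of all RNA. Per 100 UMIs of the 18 vascular markers, *Kdr* was at 12.1 (10.2 to 14.3), 13.8 (12.8 to 14.9), 11.4 (9.38 to 13.7) and 13.0 (11.2 to 15.1) UMIs in sub-clusters 0 to 3. *Flt1* was at 18.6 (16.3 to 21.3), 17.99 (16.8 to 19.2), 15.5 (13.1 to 18.1) and 19.6 (17.3 to 22.1). *Nrp1* ranged from 5.19 (3.88 to 6.81) in sub-cluster 2 to 7.93 (6.41 to 9.70) in sub-cluster 0, *Tie1* from 2.10 (1.30 to 3.20) in sub-cluster 2 to 2.88 (2.42 to 3.40) in sub-cluster 1, and *Tek* from 1.52 (0.899 to 2.40) in sub-cluster 0 to 2.99 (2.02 to 4.27) in sub-cluster 2. *Flt4* ranged from 0.0998 (0.00253 to 0.556) in sub-cluster 2 to 0.927 (0.463 to 1.66) in sub-cluster 0. For each of the 6 receptor genes, the intervals of every pair of sub-clusters overlapped on this scale, and overlap does not show that the sub-clusters are alike. *Flt4* had 1 UMI in sub-cluster 2 and 34 in sub-cluster 1. *Vegfa* in sub-cluster 1 was at 0.472 (0.284 to 0.737), from 19 UMIs in 19 cells, so vascular-like cells with little acinar RNA also held some *Vegfa* RNA, below the ductal level of 0.877.

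**Figure D3:**
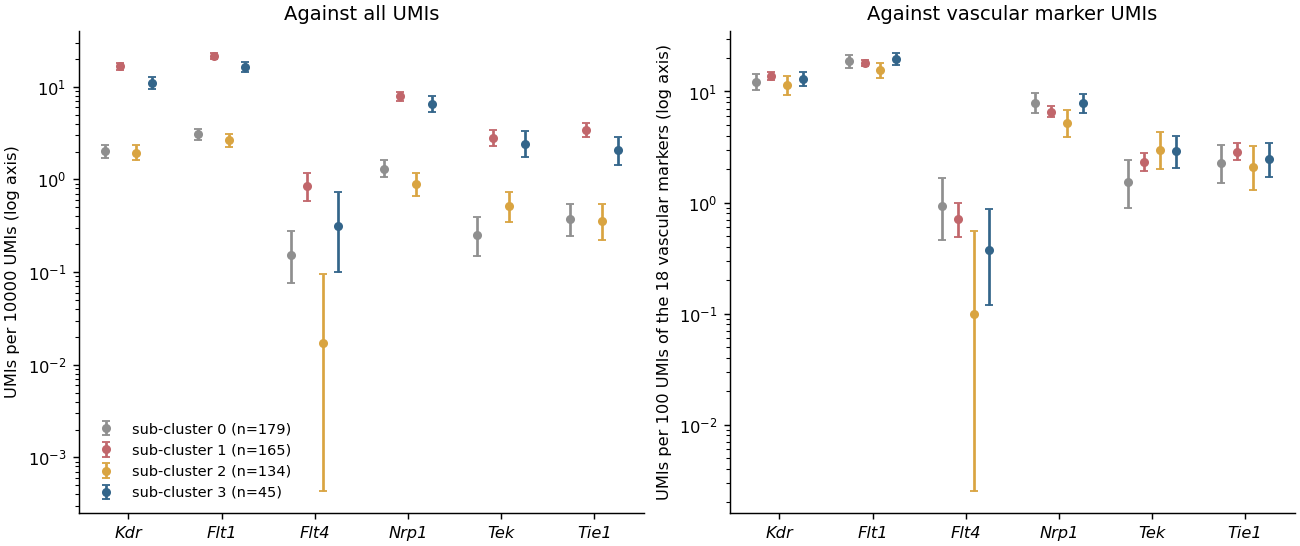
Receptor gene levels in the 4 vascular-like sub-clusters on log axes with 95% Poisson intervals, on the left as UMIs per 10000 UMIs and on the right per 100 UMIs of the 18 vascular markers. On the left *Kdr* ranges from 1.95 to 16.6, and on the right from 11.4 to 13.8.

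A few lymphatic cells were present. Of the 523 vascular-like cells, 6 had at least 3 of 8 lymphatic genes (*Prox1*, *Lyve1*, *Mmrn1*, *Ccl21a*, *Pdpn*, *Reln*, *Pard6g* and *Thy1*, a limit set after the values were seen), with 332 UMIs of the chemokine gene *Ccl21a* and 10 of *Prox1*, the master regulator of lymphatic identity. Of these cells, 5 lay in sub-cluster 1 and 1 in sub-cluster 0. All 6 had a *Flt4* UMI, 11 in total, at a level of 4.62 (2.31 to 8.27). The 499 cells with no lymphatic gene had a *Flt4* level of 0.228 (0.163 to 0.311), 20.3-fold lower with a log2 ratio of 4.34 (3.23 to 5.33), and the 158 such cells of sub-cluster 1 had 0.710 (0.468 to 1.03). *Flt1* showed the opposite, with 1 UMI in the 6 cells at 0.420 (0.0106 to 2.34) against 8.00 (7.59 to 8.43) and 22.7 (21.2 to 24.2). *Nrp1* likewise had 1 UMI in the 6 cells, at 0.420 (0.0106 to 2.34) against 3.05 (2.80 to 3.32). *Kdr* was present in all 6 cells, with 12 UMIs at 5.04 (2.61 to 8.81), not separated from the 5.83 (5.48 to 6.199) of the cells with no lymphatic gene, but below the 17.2 (15.9 to 18.6) of such cells in sub-cluster 1 by 1.77 on the log2 scale. *Tie1* had 6 UMIs and *Tek* 1. These 6 cells held 11 of the 51 *Flt4* UMIs of the class, and 37 of the 499 cells with no lymphatic gene (7.41%) also had a *Flt4* UMI.

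The receptor genes were often found in the same cells. Of the vascular-like cells 82.0% had at least 1 and 47.6% at least 3 of the 6 receptor genes, and 8 cells had all 6. In sub-cluster 1 all 165 cells had at least 1 and 90.3% at least 3. In lymphoid-like cells 2.34% had at least 1, and in ductal cells 1.40%. Among mesenchymal-like cells 21.1% had at least 1 but 0.360% (2 cells) at least 3. *Kdr* and *Flt1* were both present in 263 vascular-like cells, which are 85.4% of the cells with *Kdr* and 75.6% of those with *Flt1*. *Tek* and *Tie1* were both present in 67 cells, 49.6% of those with *Tek* and 42.4% of those with *Tie1*. Deeper cells have a UMI of any gene more often, and these shares were not thinned.

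The other genes of the pathway were counted from a list of 60, of which 44 had at least 100 UMIs. Of these 44, 8 were at least 2-fold above every other class in vascular-like cells, against 1.42% of all genes, and 13 were highest there. The count of 8 was 4 when the listed genes were kept among the clustering genes (background 0.908%) and 13 where the class shrank to 211 cells (background 4.84% or 4.63%). A further 13 were highest in pericyte-like, 8 in ductal, 5 in basal or myoepithelial-like, 3 in lymphoid-like, 1 in myeloid-like and 1 in mesenchymal-like cells. Over all 11235 genes the basal or myoepithelial-like class was the highest for 23.9%, the pericyte-like class (85 cells) for 22%, the ductal class for 19.1%, the lymphoid-like class for 14.3%, the myeloid-like class for 9%, the vascular-like class for 4.8%, the mesenchymal-like class for 4.79%, the mucinous acinar-like class for 1.83% and the serous acinar-like class for 0.24%. The median log2 ratio of the vascular-like level over the highest other class was −1.05 for the list and −1.39 for all genes.

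**Figure D4:**
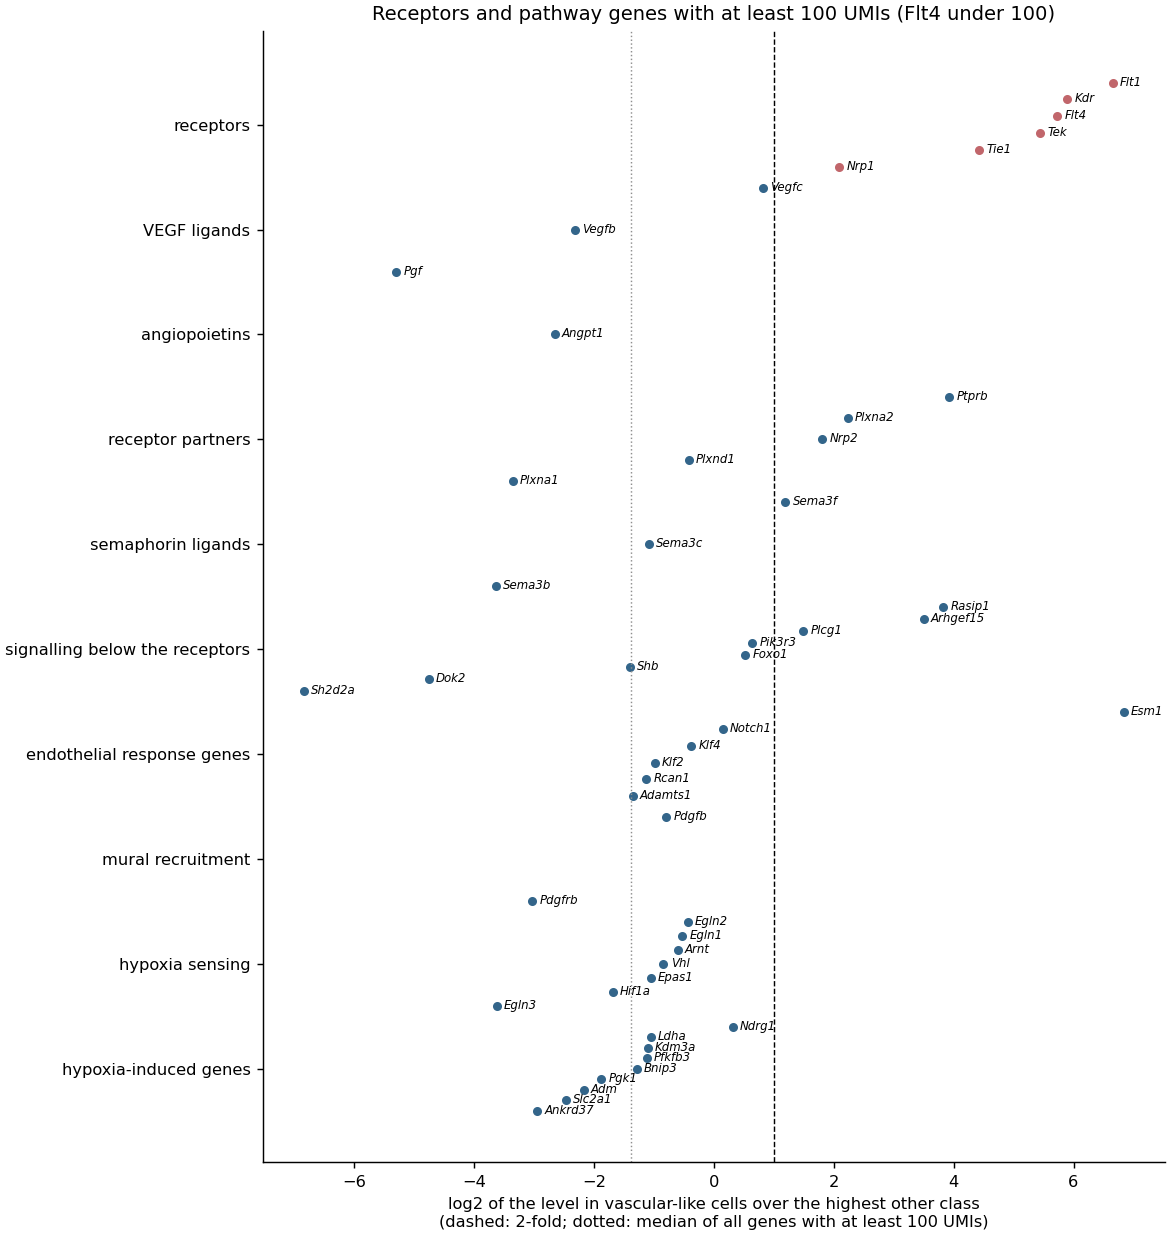
Log2 ratio of the level in vascular-like cells over the highest other class for the 6 receptor genes (red) and the 44 pathway genes with at least 100 UMIs (blue), by role, with a dashed line at 2-fold and a dotted line at the median of all genes, −1.39. The receptors lie between 2.09 and 6.65, and *Esm1*, *Ptprb*, *Rasip1* and *Arhgef15* are the pathway genes that lie furthest right.

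Among the receptor partners, 3 of 5 were at least 2-fold higher in vascular-like cells. *Ptprb*, the endothelial phosphatase VE-PTP that acts on TIE2, was at 4.19 (3.91 to 4.50), with a log2 ratio of 3.93 (2.70 to 5.55) over pericyte-like cells. *Nrp2*, the co-receptor of VEGFR3, was at 0.499 (0.403 to 0.611), with a log2 ratio of 1.81 (1.14 to 2.54) over mesenchymal-like cells. The semaphorin receptor gene *Plxna2* was at 0.553 (0.451 to 0.670), with a log2 ratio of 2.23 (1.52 to 3.02). *Plxnd1*, the plexin of vessels, was at 0.536 in vascular-like and 0.717 in pericyte-like cells, which were not separated. Of the semaphorin ligands, *Sema3c* was highest in ductal cells at 0.846 (0.789 to 0.907), above the vascular-like level of 0.397 by a log2 ratio of 1.09 (0.75 to 1.46). *Sema3f* was highest in vascular-like cells at 0.252 (0.185 to 0.335), but was not separated from pericyte-like cells with 2 UMIs, at a log2 ratio of 1.19 (−0.74 to 4.28).

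Of 8 signalling genes below the receptors, 3 were at least 2-fold higher in vascular-like cells. These were *Rasip1* at 0.783 (0.661 to 0.921) and *Arhgef15* at 0.622 (0.514 to 0.746), regulators of small GTPases in endothelium, each over 1 UMI in pericyte-like cells, and *Plcg1*, the phospholipase that VEGFR2 activates, at 0.456 (0.364 to 0.564) with a log2 ratio of 1.49 (0.82 to 2.21). *Foxo1*, a transcription factor that angiopoietin signalling holds in check, was at 0.429 (0.340 to 0.534) and was not separated from basal or myoepithelial-like cells. The adaptor genes *Sh2d2a*, whose product binds VEGFR2, and *Dok2*, whose product binds TIE2, were highest in lymphoid-like cells, at 3.08 (2.87 to 3.29) and 0.581 (0.492 to 0.681), against 0.0268 and 0.0215 in vascular-like cells. Both are also known as lymphocyte adaptors.

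Of 6 endothelial response genes, *Esm1*, a VEGF-induced secreted proteoglycan, was 2-fold higher in vascular-like cells, at 0.799 (0.676 to 0.938) with a log2 ratio of 6.84 (4.96 to 9.90). *Notch1* was at 0.756 in vascular-like and 0.684 in basal or myoepithelial-like cells, a log2 ratio of 0.14 (−0.23 to 0.53). The flow-responsive genes *Klf2* and *Klf4* and the protease gene *Adamts1* were highest in pericyte-like cells. Of the mural recruitment pair, *Pdgfb* was at 1.16 (1.04 to 1.30) in myeloid-like and 0.671 (0.558 to 0.799) in vascular-like cells, and its receptor gene *Pdgfrb* was at 2.15 (1.53 to 2.94) in pericyte-like and 0.755 (0.627 to 0.902) in mesenchymal-like cells.

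*Vegfa* is a known target of hypoxia-inducible factors, and the list therefore held the sensors and other targets of this response. Of 7 sensing genes, *Hif1a* and *Epas1* were highest in pericyte-like cells, at 1.43 (0.936 to 2.10) and 6.23 (5.13 to 7.49), of which *Hif1a* was not separated from the 0.969 of basal or myoepithelial-like cells, at a log2 ratio of 0.57 (−0.10 to 1.18). *Epas1*, known from endothelium, was at 2.99 (2.75 to 3.25) in vascular-like cells. *Egln3*, an oxygen sensor that is itself hypoxia-induced, was highest in ductal cells at 0.331 (0.295 to 0.369), above basal or myoepithelial-like cells by a log2 ratio of 1.36 (0.69 to 2.11). Of 9 hypoxia-induced genes, 3 were highest in ductal cells, the glycolysis genes *Pgk1* at 1.44 (1.37 to 1.52), *Ldha* at 3.53 (3.41 to 3.65) and *Pfkfb3* at 0.466 (0.424 to 0.512), where *Ldha* was not separated from pericyte-like cells at a log2 ratio of 0.17 (−0.21 to 0.57). The ductal class was the highest for 19.1% of all genes. Of the other induced genes, *Slc2a1* and *Kdm3a* were highest in basal or myoepithelial-like and *Bnip3* and *Ankrd37* in pericyte-like cells. *Adm* was highest in mesenchymal-like and *Ndrg1* in vascular-like cells, and of these genes only *Ankrd37* was separated from its next class. By cluster, *Pgk1* and *Ldha* were highest in the *Ascl3* cluster 3, at 1.80 and 4.97, and *Pfkfb3* in kallikrein-rich cluster 11, at 0.793. None of the 7 sensing genes and of the 9 induced genes was at least 2-fold above every other class in vascular-like cells.

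The genes whose levels over the 22 clusters of at least 50 cells were most like each member were also noted, with Pearson's r of log2 levels as a description, since the clusters share depth and free RNA. Only 1 of these clusters was vascular-like. A gene largely confined to it reaches a high r by that alone, so such values do not show that 2 genes vary together among vascular-like cells. For *Kdr* the most similar genes were *Emcn*, *Piezo2*, *Pcdh17*, *Tek* and *Col13a1* (r from 0.991 to 0.995), and for *Flt1* *Btnl9*, *Kdr*, *Emcn*, *Col13a1* and *Pcdh17* (0.986 to 0.987). For *Tek* they were *Cyyr1*, *Adgrl4*, *Unc45b*, *Emcn* and *Esm1* (0.992 to 0.997), and for *Tie1* *Gpihbp1*, *Cavin2*, *Arhgef15*, *Cdh5* and *Rasip1* (0.984 to 0.994). For *Flt4* they were *Car4*, *Ushbp1*, *Hecw2*, *Ccl21a* and *Esm1* (0.989 to 0.992), at 62 UMIs. *Nrp1* had lower values, with *Slfn5*, *Eva1b*, *Stx2*, *Rgl1* and *Sult1a1* (0.890 to 0.923). For *Vegfa* they were *Bcl2l13*, *Heatr5b*, *Hspa4l*, *Ric8a* and *Fam210a* (0.918 to 0.939).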

How the data were processed

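Cells were counted with Cell Ranger 6.0.1 on mm10, and Seurat 4.1.1 is also named in the submitters' processing notes. The deposited matrix holds raw UMI counts per gene and cell (no normalization by the authors), from 10x 3′ libraries of 4 samples merged under 1 barcode suffix. The labels give 2 mice per sample and the methods another number. All 15707 barcodes were used, with 1374 to 141509 UMIs each (median 2608), and 0 columns of per-sample values were left unused.

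Counts were log-normalized (scale factor 10000) and clustered in R 4.3.3 with Seurat 5.3.0 on 1967 of 2000 variable genes, leaving out the 7 genes and the pathway list, with 20 principal components and resolution 0.5. A cluster was named when at least 3 markers of a list were each found in 25% of its cells, that list led the next by 5 percentage points of its size, its median was at least 500 genes per cell and its leading genes did not favour another list. This put 5927 cells (37.7%) of 4 clusters under the limit on genes. Doublets were not removed, since Scrublet called 1 cell (0.00637%) and had therefore not worked. Levels, exact Poisson and Clopper-Pearson intervals, and log2 ratios with exact conditional binomial intervals were computed in Python 3.11.15 with scipy 1.17.1 and checked on simulated data. Intervals are at 95%, the floor for a count of 0 was 3 counts, and genes needed at least 100 UMIs to enter the shares over all genes. Named were the 7 genes, the pathway list by group, class markers, and the 5 genes most correlated with each member over clusters of at least 50 cells, on log2 levels with 0.1 added. The members and lists were chosen with earlier results of these data known, and the naming limits, sub-clusters, checks on other classes' markers and the limit for lymphatic cells were set after these clusters were seen. An alias on the list (*Figf*, the older name of *Vegfd*) was not among the gene symbols. Promoter sequences are from RefSeq.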

Additional observations from a re-analysis of the deposited data

How the results depend on the processing

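Of 125 alternative values over 14 settings, 108 kept their size and direction or stayed within 1.5 times as counts. None of the 7 genes' class ratios that had been separated from 0 reversed. Some of the 108 could not have moved, since their setting left the compared classes untouched, and they say nothing about robustness. With lymphoid cluster 4 in place of its class, the ratios of the 6 receptor genes were those of the main setting. With vascular-like sub-cluster 1 in place of its class, the *Vegfa* ratio stayed at 0.12. Another setting left out the cells with the highest 10% of Scrublet scores. Scrublet had not worked here, so the values kept under that setting say little about doublets. The vascular over mesenchymal log2 ratio of *Nrp1* (2.09) was 1.09 at resolution 0.3, 2.44 at resolution 0.8, 2.44 with 10 and 1.78 with 30 principal components, 0.62 with the listed genes kept among the variable genes, 1.09 with a filter on cells (at least 200 genes, at most 20% mitochondrial UMIs) and 3.46 with vascular-like sub-cluster 1 in place of the class. That of *Flt1* (6.65) was 8.07 at resolution 0.8, 8.09 with 10 principal components and 8.07 with sub-cluster 1, and that of *Kdr* (5.90) was 7.39 with sub-cluster 1. The ductal over lymphoid ratio of *Vegfa* (0.12, with an interval that held 0) was −0.12 at resolution 0.8 and 0.83 as mean UMIs per cell. Inside that interval, it was −0.02 as the mean of per-cell levels and −0.02 with free RNA taken away. The number of pathway genes at least 2-fold higher in vascular-like cells (8) was 13 at resolution 0.8, 13 with 10 principal components, 13 with sub-cluster 1 and 4 with the listed genes kept, and the receptor count (6) was 5 in the last of these. The cause of these shifts was not tested. Sub-cluster 1 and lymphoid cluster 4 as stand-ins for their classes were chosen after seeing the data. *Flt4* had no ratio in the random draw that thinned cells to 1000 UMIs for these ratios. In the draw used for the shares of cells, 0.290% of mucinous acinar-like cells kept a *Flt4* UMI at that depth. The 62 *Flt4* UMIs limit what can be said of this gene. No paired analysis was possible because the matrix does not tie cells to samples, and no replicate could be left out for the same reason.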
